A study of Harpegnathos saltator with 35 samples.

Results

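In cultured brain cells of the ant Harpegnathos saltator, 78 genes were lower after 24 h of 20-hydroxyecdysone (20E, the steroid that triggers moulting in insects) than in cultures kept in juvenile hormone III (JH3). They were drawn from a table of 14001 genes, of which 9873 had at least 1 FPKM (sequenced fragments per length of gene, scaled between libraries) in at least 3 libraries. The genes were chosen by their measured levels in 3 groups of libraries. A gene was taken when log2(group mean FPKM + 1) at 24 h of 20E minus the JH3 baseline was -0.7 or lower. In addition, each of the 4 libraries of 24 h of 20E had to lie below every JH3 baseline library and every library of 30 min of 20E. Of the 81 genes that met both conditions, Nep5, usp and nolo were left out by name; the 2 others on the same list of exclusions, Scp2 and per, did not meet them. The separation alone was met by 250 genes and the size of the difference alone by 185. Since these libraries chose the genes, their values are a description and carry no test; tests are given only between other libraries.

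Cells from dissociated central brains were kept for 5 days in 2 µM JH3 or 2 µM 20E and then moved to 2 µM of the opposite hormone. JH3 cultures were sampled at baseline (4 libraries) and after 30 min, 6 h and 24 h of 20E (5, 6 and 4 libraries). 20E cultures were sampled at baseline (5 libraries) and after 30 min, 6 h and 24 h of JH3 (3, 5 and 3 libraries). Both baselines were changed to medium with the solvent DMSO for 30 min, so the 24 h libraries have no solvent control of their own time. No group was kept for 24 h without either hormone. At 24 h the hormone added, the hormone withdrawn and the longer culture therefore cannot be told apart. All cultures shared a medium with progesterone, insulin, transferrin and selenium, and honeybee pupal extract was present in it until the day before the switch. The libraries are from independent cultures, per the series' design text; whether these came from separate ants, colonies or castes is not given in the labels.

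20E acts through a pair of nuclear receptors, the ecdysone receptor and its partner ultraspiracle (usp), which switch on a first wave of transcription factors such as E75; these in turn raise or lower later genes. JH3 acts through another receptor, Met, whose best known target is the repressor Kr-h1. In insects both hormones also reach the adult brain, and in Harpegnathos their levels differ between workers and the reproductive workers called gamergates.

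The 35 libraries held 5938017 to 22650451 reads in genes (median 10844908). None of the 8 general neuron markers and 8 glial markers on the lists used here had a mean under 1 FPKM in any group. The markers summed to 659 to 776 FPKM for neurons and 201 to 222 FPKM for glia in the 24 h libraries, against 462 to 675 FPKM and 227 to 341 FPKM in the JH3 baseline. Most of the glial sum was 1 gene, Eaat2, with a mean of 120 FPKM at 24 h and 205 FPKM in the JH3 baseline. The median difference of the 8 glial genes was -0.05. Of the glial genes, drpr was below all baseline libraries and Gs2 above all of them. In these bulk libraries fewer cells of a type and less RNA per cell cannot be told apart. Longer genes also read higher in the 24 h libraries, by 0.009 to 0.071 on the log2 scale per doubling of gene length, against -0.089 to 0.027 in the JH3 baseline; the 78 genes were longer than most, with a median of 1.62 times that of the tested genes. The part of glial RNA in the lower levels, and of gene length in the levels at 24 h, was not tested. JH3 baseline replicate 4 and 30 min replicate 5 stood apart from their groups, and the baseline came from sequencing runs A and B while the 24 h libraries came from runs B and C. Values without JH3 baseline replicate 4 and within runs are given below. Replicate 5 of 30 min was left out only together with that library, in the tested fits.

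The 78 genes had a median difference of -1.05 at 24 h on the log2(FPKM + 1) scale, against -0.02 over all 9873 genes tested, and ranged from -2.5 to -0.70. This scale understates the change of genes with low FPKM. Without JH3 baseline replicate 4 the median was -1.11, and within run B, with 2 libraries on each side, it was -1.11 with all 78 genes below 0. The gene with the largest difference, known only by its number LOC105180846, had 5.17, 1.97, 5.49 and 4.17 FPKM at 24 h, against 32.1, 42.4, 26.7 and 12.5 FPKM in the JH3 baseline. LOC105187962 had 41.2, 25.0, 36.7 and 35.9 FPKM at 24 h, against 216, 239, 190 and 41.9 FPKM in the JH3 baseline. Baseline replicate 4 was the lowest of its group in both genes, and in LOC105187962 it lay just above the highest 24 h library. At the other end, LOC105181470, LOC105181860 and LOC105190994 were just inside the threshold (-0.70, -0.70 and -0.71), while LOC112589351, LOC105187460 and Dhpr met the separation and were just outside it (-0.69, -0.68 and -0.67). Of the 78 genes, 75 are annotated as protein-coding and 3 as long non-coding RNA; 24 carry a symbol in RefSeq, and the roles given below are those of the fly or mammalian namesake.

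**Figure D1:**
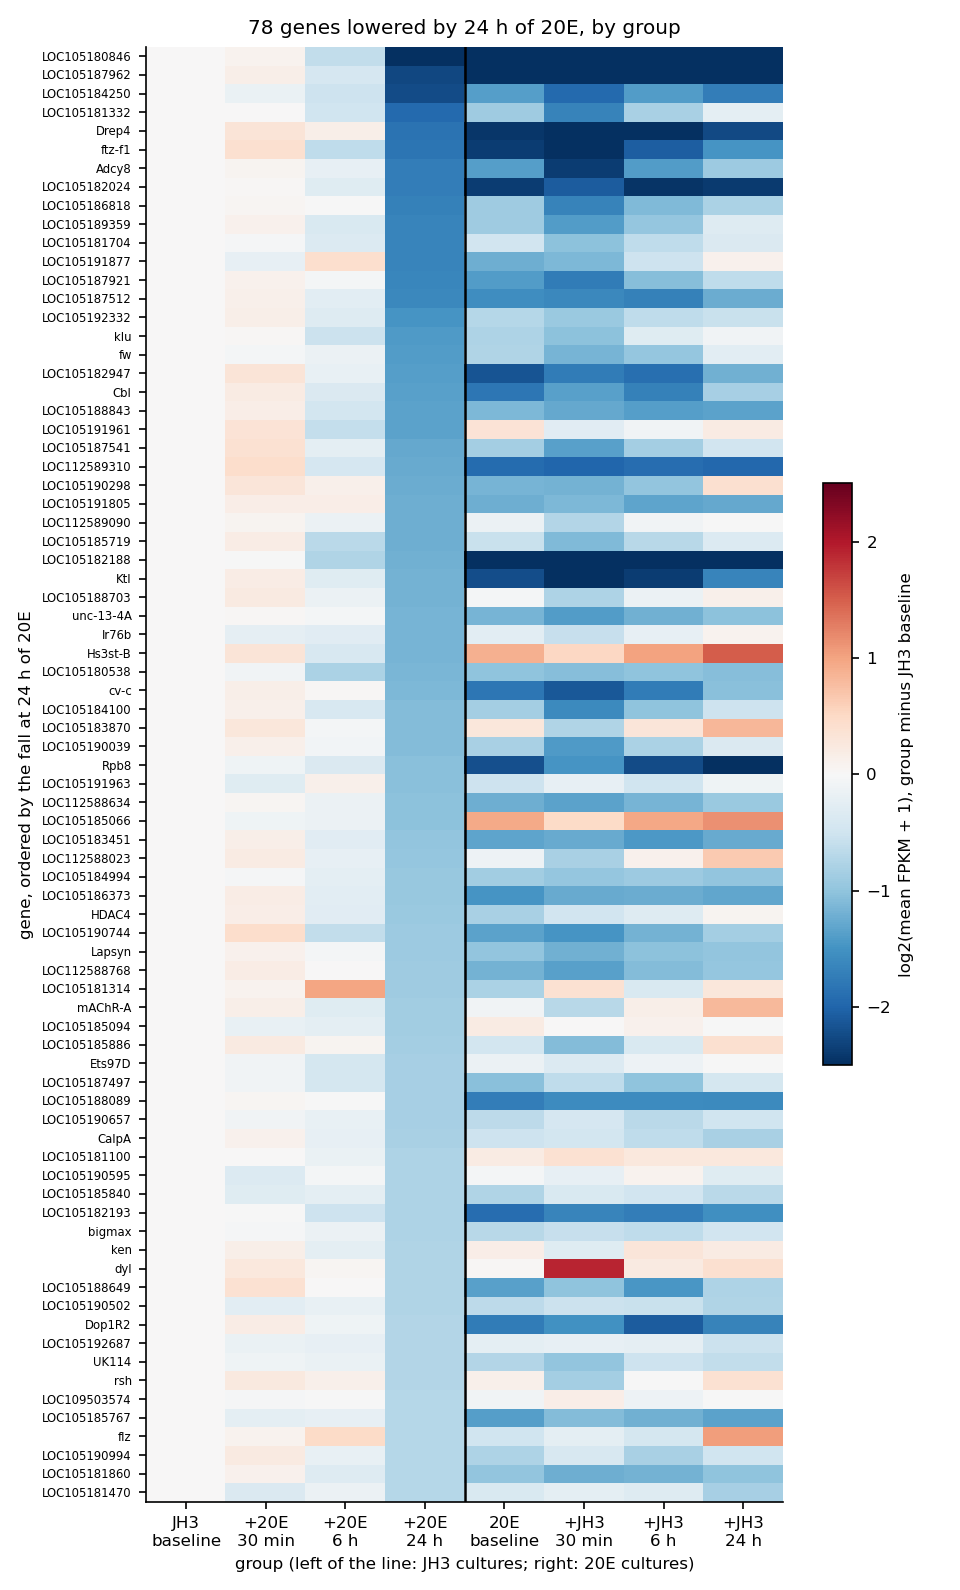
Heat map of the 78 genes (rows, ordered by their difference at 24 h of 20E) in the 8 groups (columns), as log2(mean FPKM + 1) of the group minus the JH3 baseline, blue for lower and red for higher, with the colour scale ending at 2.5 in either direction. The column for 24 h of 20E is blue throughout because of how the genes were chosen; the 30 min and 6 h columns are pale, and the 4 columns of 20E cultures hold both deep blue rows such as Drep4 and red rows such as Hs3st-B.

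Transcription factors made up 5 of the 24 named genes. The best known is ftz-f1, a nuclear receptor that in the fly is held down while 20E is high, comes on as the pulse ends and makes tissues competent for the next one. It had 15, 7.79, 13.2 and 9.70 FPKM after 24 h of 20E, against 40.6, 69.2, 40.5 and 20.6 FPKM in the JH3 baseline, a difference of -1.82. All of its 24 h libraries were low, and the spread was wider in the baseline than after 20E. A gene beside it in RefSeq whose span overlaps its own, LOC105187541, is also among the 78 (-1.28); the libraries are strand-specific, but the strand setting of the counting is not known, so reads of this pair may be shared. The zinc finger factor klu had 2.67, 1.35, 2.13 and 1.61 FPKM at 24 h, against 7.31, 6.03, 6.81 and 7.40 FPKM in the baseline (-1.42). The ETS factor Ets97D (-0.84), the zinc finger repressor ken (-0.76) and bigmax, a helix-loop-helix partner in sugar sensing (-0.77), had smaller differences, with mean levels at 24 h of 4.07 ± 0.45, 3.54 ± 0.45 and 9.31 ± 0.24 FPKM, against 8.05 ± 1.1, 6.69 ± 2.8 and 16.5 ± 2.4 FPKM in the baseline (SD, n = 4 each).

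Of the 15 tested genes on a list of ecdysone response genes, ftz-f1 is the one member. In group means, 9 of the 15 were higher at 24 h than the JH3 baseline by at least the size of the threshold, and 2 were lower by as much, ftz-f1 and the excluded usp (-1.24). E75, a receptor of the first wave, averaged 517 ± 96 FPKM at 24 h and 45.0 ± 12 FPKM in the baseline (SD, n = 4 each).

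Receptors and signalling enzymes came next. Adcy8, an adenylyl cyclase that makes the second messenger cAMP, had 26.5, 10.9, 29.0 and 19.4 FPKM after 24 h of 20E, against 95, 82.3, 73.4 and 43.5 FPKM in the JH3 baseline (-1.73). Cbl, a ubiquitin ligase that turns off receptor tyrosine kinases, had 21.5, 15.4, 18.5 and 17.5 FPKM, against 56.4, 46.4, 54.0 and 36.9 FPKM in the baseline (-1.36). In both genes the groups were well apart, and baseline replicate 4 was the library closest to the 24 h values. The muscarinic acetylcholine receptor mAChR-A had 39.8, 25.7, 40.3 and 37.4 FPKM at 24 h, against 78.5, 75.6, 68.8 and 42.6 FPKM in the baseline (-0.87). The dopamine receptor Dop1R2, which in the fly acts in mushroom body neurons during memory, had 19.3, 7.78, 15 and 15.9 FPKM, against 24.9, 35.1, 19.6 and 19.7 FPKM in the baseline (-0.74). Here the highest 24 h library lay just below the lowest baseline library, so the separation was narrow. Ir76b, a co-receptor of ionotropic chemosensory receptors, averaged 7.78 ± 1.2 FPKM at 24 h and 18.6 ± 2.7 FPKM in the baseline (SD, n = 4 each).

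Dop1R2 and mAChR-A were the members among 14 tested G protein coupled transmitter receptors, a list with a median difference of 0.07. The other genes on it did not share the direction as a group. Lower means at 24 h were seen in 2 other dopamine receptors. Dop2R averaged 10.7 ± 2.5 FPKM at 24 h and 16.5 ± 4.7 FPKM in the baseline, and DopEcR 51.9 ± 4.0 and 63.2 ± 12 FPKM. GABA-B-R2 was the 1 gene of the list higher by at least the size of the threshold. It averaged 45.0 ± 4.5 FPKM at 24 h and 21.9 ± 2.5 FPKM in the baseline (SD, n = 4 each). The second muscarinic receptor, mAChR-B, was at 14.3 ± 1.3 FPKM at 24 h and 14.2 ± 2.9 FPKM in the baseline. Of 12 tested mushroom body genes Dop1R2 was the one member, and the list's median was -0.07. None of the 78 genes was on the lists for synaptic vesicles and active zones, ion channels, neuropeptides, transmitter synthesis, adhesion and axon guidance, general neuron markers or glia. The excluded nolo is on the adhesion list. In group means, 1 of 34 channel, 1 of 18 synaptic, 1 of 29 adhesion and 1 of 8 glial genes were lower by at least the size of the threshold. On these lists 6, 1, 8 and 1 genes were higher by as much.

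Genes of the cell surface, the synapse and vesicle release included several at high level. Ktl, related to the potassium channel tetramerisation domain proteins of mammals, had 72.4, 50.2, 72.9 and 76.9 FPKM after 24 h of 20E, against 162, 171, 216 and 78.3 FPKM in the JH3 baseline (-1.19). Replicate 4 of the baseline lay just above the highest 24 h library, and the other 3 baseline libraries were far above it. The vesicle priming factor unc-13-4A averaged 31.6 ± 6.3 FPKM at 24 h and 71.9 ± 24 FPKM in the baseline, and Lapsyn, a leucine-rich repeat protein of synapses, averaged 9.92 ± 1.0 and 19.5 ± 4.1 FPKM in these groups (SD, n = 4 each). The gene cv-c, not assigned to the cell surface or the synapse here, averaged 25.8 ± 5.3 FPKM at 24 h and 57.5 ± 16 FPKM in the baseline. Hs3st-B, which adds sulfate to heparan sulfate chains, had 9.36, 5.39, 9.41 and 8.33 FPKM at 24 h, against 23.7, 14.8, 29.0 and 9.68 FPKM in the baseline (-1.15). The memory gene rsh, named after the fly mutant radish, averaged 11.7 ± 2.4 FPKM at 24 h and 20.1 ± 7.6 FPKM in the baseline. The adhesion protein fw, the apical matrix protein dyl and the serine protease flz were low in both groups, with at most 0.814 FPKM in any 24 h library, against at least 1.01 FPKM in every baseline library.

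The remaining named genes act inside the cell. Drep4, a nuclease of the DNA fragmentation factor family, had 4.08, 2.52, 4.01 and 2.76 FPKM after 24 h of 20E, against 13.4, 19.6, 15.1 and 10.2 FPKM in the JH3 baseline (-1.84). HDAC4, a histone deacetylase that shuttles between cytoplasm and nucleus, had 26.3, 20.8, 24.6 and 24.7 FPKM, against 50.8, 42.9, 55.8 and 37.0 FPKM in the baseline (-0.92). Drep4 was thus at 22.9% of its baseline mean and HDAC4 at 51.7%. Rpb8, a subunit shared by the RNA polymerases, averaged 20.3 ± 2.5 FPKM at 24 h and 43.2 ± 4.7 FPKM in the baseline, and the calpain protease CalpA averaged 11.6 ± 1.3 and 20.9 ± 3.2 FPKM in these groups (SD, n = 4 each). CalpA also overlaps another of the 78 genes, LOC112589310. UK114, of the RidA family, was low, at 0.664 ± 0.044 FPKM at 24 h and 1.77 ± 0.64 FPKM in the baseline. The 54 genes known by number only had means of 0.413 to 55.0 FPKM at 24 h and 1.51 to 172 FPKM in the baseline. Among them, LOC105187921, LOC105182188 and LOC112588634 had the highest levels in the JH3 baseline after LOC105187962; LOC105187921 had 70.3, 37.1, 59.3 and 53.3 FPKM at 24 h, against 207, 215, 164 and 101 FPKM in the baseline.

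**Figure D2:**
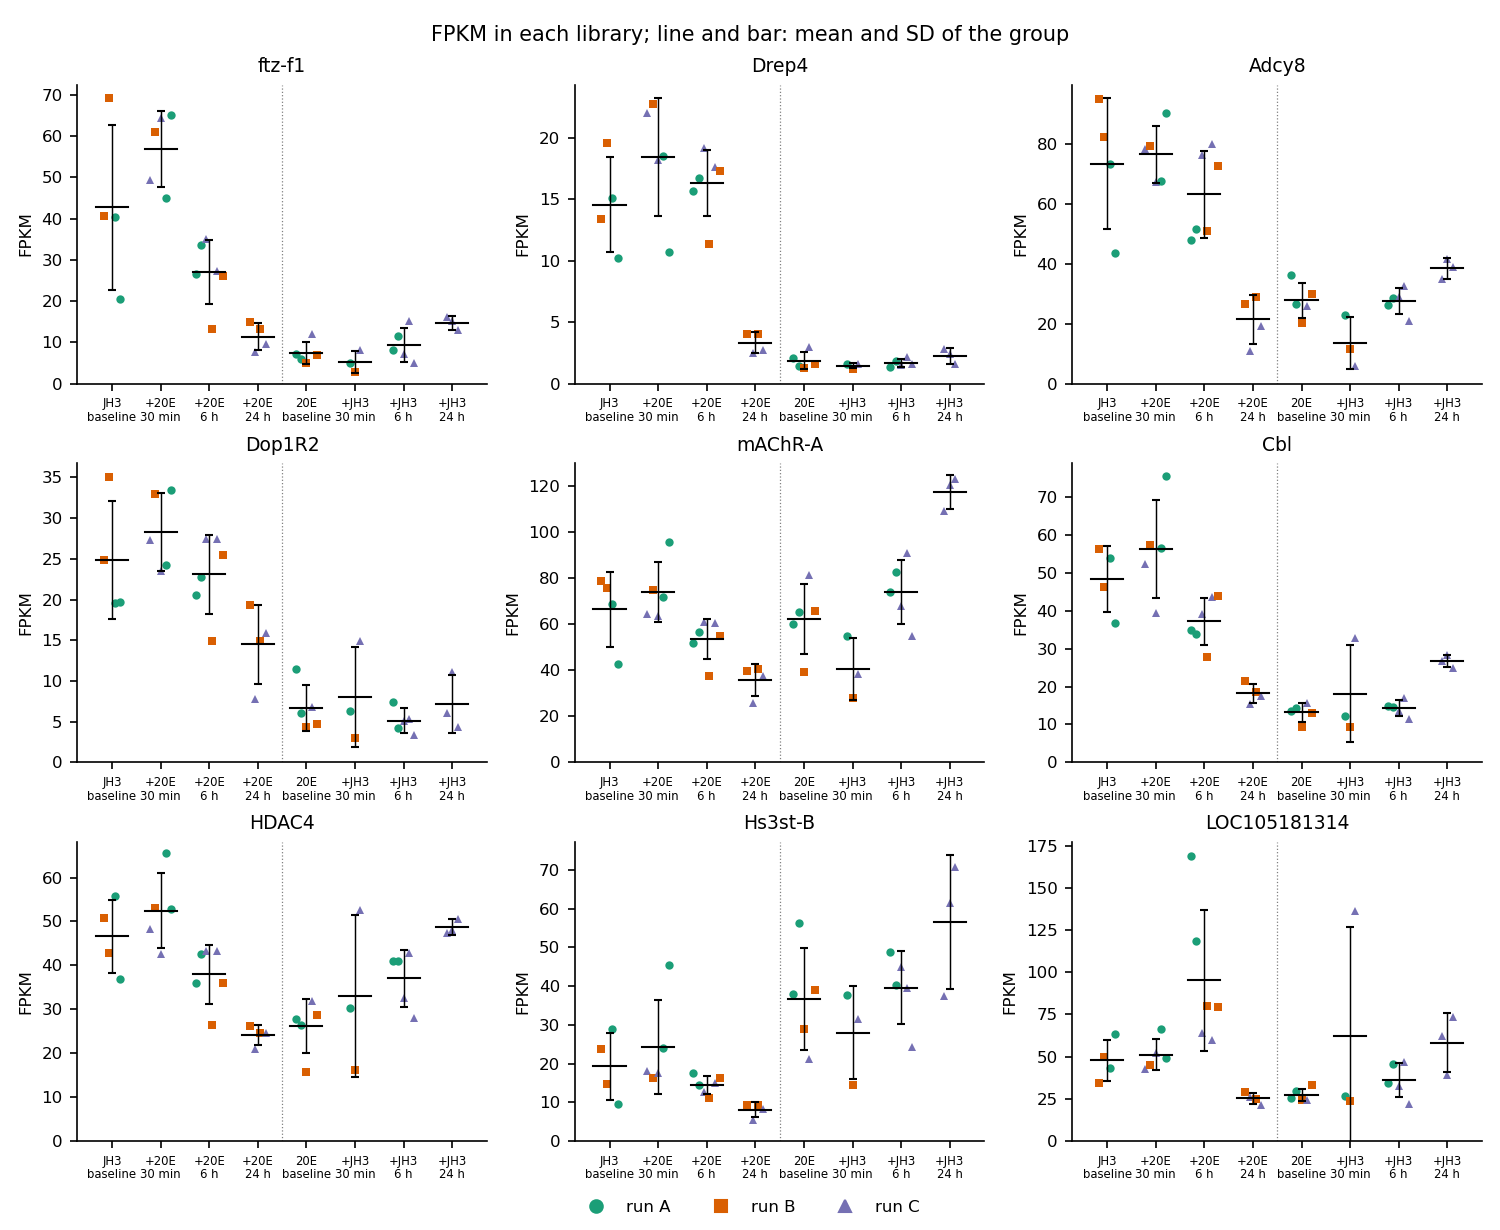
FPKM (vertical axis, linear, from 0) of 9 of the 78 genes in each of the 35 libraries, by group (horizontal axis; JH3 cultures left of the dotted line and 20E cultures right of it); symbols mark the sequencing run, and lines and bars give the mean and SD of each group. In ftz-f1, Drep4, Adcy8 and Cbl the 24 h libraries lie near those of the 20E baseline, Dop1R2 lies between the baselines, and Hs3st-B lies below both.

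After 6 h of 20E, in most of the 78 genes, the larger share of the 24 h difference was not present. The rule also required every 24 h library to lie below every library of 30 min, so the values at 30 min are a description from which no timing is read. There the median difference from the JH3 baseline was 0.10, and 1 of the 78 genes had all libraries below the baseline, against 0.79% of all genes, and none had all above it, against 0.385%. After 6 h the median difference was -0.21, with 65 genes below the baseline mean and 13 above it, against -0.01 over all genes. At 6 h a median of 21.8% of the 24 h difference was present, and in 7 of the 78 genes it was at least 50%. Both the JH3 baseline and the 24 h libraries chose the genes. This share, and the counts at 6 h against that baseline, are therefore description only. Only Ets97D, LOC105185719 and klu had all 6 libraries of 6 h below all 4 of the baseline, against 0.425% of all genes tested; without JH3 baseline replicate 4 this held for 17 genes, against 1.58%. Ets97D was at 5.27 to 6.54 FPKM at 6 h (median 5.65), against 6.84 to 9.33 FPKM in the baseline. Between 6 h and 24 h all 78 means were lower at the later time, and 56 genes had every 24 h library below every 6 h library, against 3.48% of all genes; part of this is set by the rule, which used the 24 h libraries. E75 was at 488 ± 70 FPKM at 6 h (SD, n = 6), near its level at 24 h.

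The course differed between genes. For ftz-f1, 6 h libraries ran from 13.2 to 35.2 FPKM (median 26.9) and 35.4% of the 24 h difference was present. Drep4, at 11.4 to 19.2 FPKM (median 17.0), and cv-c, at 37.5 to 76.2 FPKM (median 59.9), had means at 6 h no lower than those of the JH3 baseline. LOC105181314 had the highest difference at 6 h among the 78 (0.98): its 6 h libraries held 59.8 to 169 FPKM (median 79.9), against 34.4 to 63.4 FPKM in the baseline, and its 24 h libraries 21.2 to 29.2 FPKM. All but 1 of the 6 h libraries were above every baseline library, and the 2 highest, replicates 1 and 2, were from run A. Smaller positive differences at 6 h were seen in flz (0.47) and LOC105191877 (0.42).

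Cultures kept in 20E for 5 days showed which of the genes are also low under lasting 20E, in 5 libraries that had no part in the choice. The JH3 baseline did have a part, since genes with high values there were favoured, so the next counts are given without a test. All 20E baseline libraries were below all JH3 baseline libraries in 43 of the 78 genes, against 6.87% of all genes tested, and above them in none, against 4.93%. Without JH3 baseline replicate 4 the first count was 53, against 12.9%. The median difference was -0.87, with 69 of 78 genes below 0. LOC105182188 had 6.26, 3.66, 3.64, 3.71 and 3.55 FPKM in the 20E baseline, against 119, 69.6, 121 and 63.7 FPKM in the JH3 baseline (-4.19, the widest difference on the log2(FPKM + 1) scale). LOC105180846 followed (-3.86), with 0.620 to 1.36 FPKM, against 12.5 to 42.4 FPKM, and then LOC105187962 (-3.42), with 12.2 to 20.1 FPKM, against 41.9 to 239 FPKM. Of the named genes, Drep4 had 2.07, 1.42, 1.27, 2.96 and 1.62 FPKM in the 20E baseline, ftz-f1 had 7.19, 5.92, 4.95, 11.9 and 7 FPKM, and Dop1R2 had 11.4, 6.06, 4.40, 6.83 and 4.77 FPKM. All of these were below every JH3 baseline library.

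Set against the 20E baseline, the level reached at 24 h split the genes. The rule chose genes with low 24 h libraries, which favours counts below the 20E baseline over counts above it. The counts are therefore given without a test. In 14 genes every 24 h library was still above every 20E baseline library, against 10.2% of all genes, and without 24 h replicate 2 this held for 19, against 13%. These 14 include Ktl, at 50.2 to 76.9 FPKM at 24 h and 23.5 to 41.6 FPKM in the 20E baseline, Rpb8, at 18.0 to 23.9 and 5.66 to 12.7 FPKM, and LOC105182188, at 29.4 to 50.3 and 3.55 to 6.26 FPKM. By the rule that chose the genes, these 14 must also be lower in the 20E baseline than in the JH3 baseline with no overlap. In 24 genes every 24 h library was below every 20E baseline library, against 7.1% of all genes. For 21 of these 24 the libraries of the 2 baselines overlapped, although some of the 21, such as LOC105184250 (-1.37) and LOC105186818 (-0.89), had a lower mean in the 20E baseline than in the JH3 baseline. Hs3st-B had 38.1, 56.3, 28.8, 21.3 and 39.1 FPKM in the 20E baseline, all above its 24 h libraries, which reached 9.41 FPKM. The repressor ken had 5.93 to 10.2 FPKM in the 20E baseline, against at most 3.97 FPKM at 24 h. Ets97D, Ir76b and dyl were in the same set. In the other 40 genes the libraries of 24 h and of the 20E baseline overlapped, and for 26 of these the 20E baseline was below the JH3 baseline with no overlap, among them Drep4, ftz-f1, Adcy8, Cbl, HDAC4, Lapsyn and Dop1R2.

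**Figure D3:**
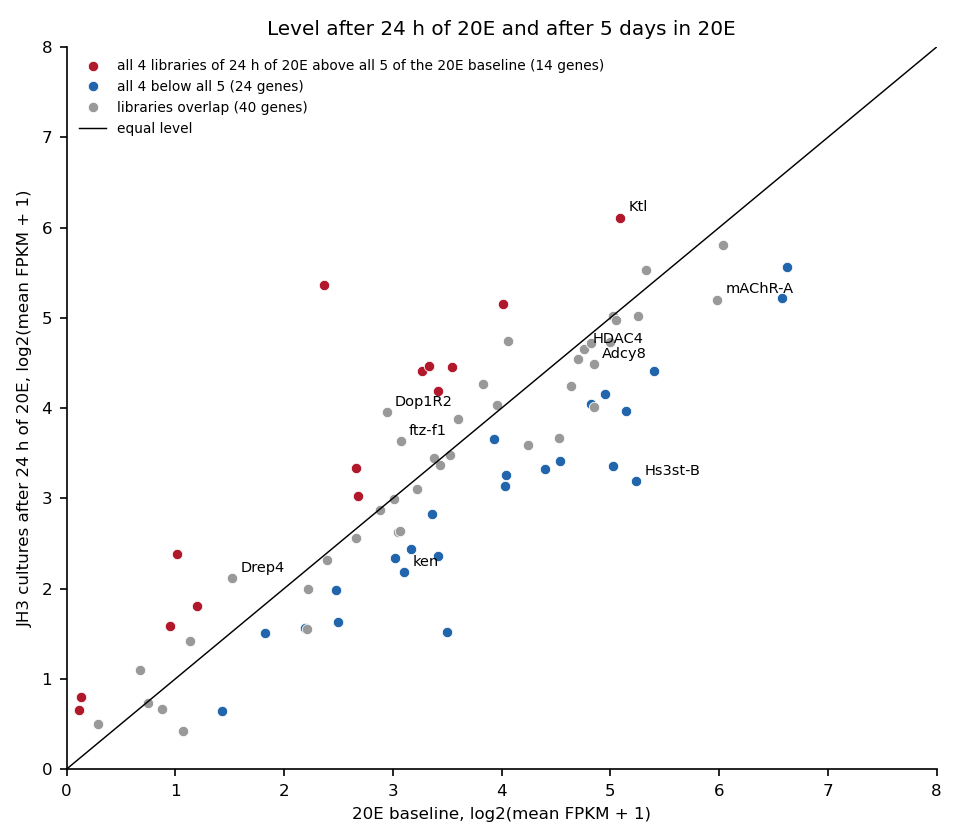
Level of the 78 genes in JH3 cultures after 24 h of 20E (vertical axis) and in the 20E baseline after 5 days (horizontal axis), both as log2(mean FPKM + 1), with the line of equal level; red points are the 14 genes whose 24 h libraries are all above those of the 20E baseline, blue points the 24 genes with all below, grey points the 40 that overlap. Ktl lies above the line, and Hs3st-B and ken lie below it.

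The first tested comparison asked whether JH3 cultures after 6 h of 20E still differed from cultures kept in 20E; none of its libraries chose the genes. Of the 78 genes, 47 were higher after 6 h of 20E than in the 20E baseline (limma with Benjamini-Hochberg adjustment over all 9873 genes, adjusted p under 0.05), or 60.3%, against 15.1% of all genes. Another 5 were lower, against 12.1% of all genes, and 26 were not called. The median fold change was 0.62 on the log2 scale, against 0.00 over all genes. Selection favoured genes with a high level in JH3 cultures, from which the 6 h libraries differed by the median of -0.21 given above. All 6 libraries of 6 h were above all 5 of the 20E baseline in 34 genes, against 7.84% of all genes, and below them in 2, Hs3st-B and LOC105185066, against 4.76%. In a fit of the compared groups alone 45 were higher and 3 lower. Within run A, with 2 libraries on each side, 19 were higher and 1 lower, LOC105185066. Within runs B and C 38 were higher and 1 lower, Hs3st-B. Of all 9873 genes, both directions together, these fits called 1725 (compared groups), 151 (run A) and 1674 (runs B and C).

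Drep4 differed by a log2 fold change of 2.59 (SE 0.17, limma adjusted p 3.89e-12), with 11.4 to 19.2 FPKM at 6 h (median 17.0) and 1.27 to 2.96 FPKM in the 20E baseline. LOC105180846 (3.20, SE 0.21) and LOC105182188 (3.45, SE 0.23) had the largest fold changes, with no overlap between libraries. LOC105187962 differed by 2.95 (SE 0.30), LOC105182024 by 2.01 (SE 0.12) and LOC105182193 by 1.44 (SE 0.13). LOC105188089 had narrow groups, at 32.0 to 41.9 FPKM at 6 h (median 37.1) and 9.76 to 11.8 FPKM in the 20E baseline (1.71, SE 0.13, limma adjusted p 3.91e-11). Ktl differed by 1.90 (SE 0.24), Rpb8 by 1.83 (SE 0.18), cv-c by 1.83 (SE 0.21) and ftz-f1 by 1.71 (SE 0.28, limma adjusted p 4.06e-05). In ftz-f1 the lowest library of 6 h, at 13.2 FPKM, was above the highest of the 20E baseline, at 11.9 FPKM. Dop1R2, at 14.9 to 27.4 FPKM (median 24.1) at 6 h and 4.40 to 11.4 FPKM in the 20E baseline, differed by 1.68 (SE 0.28, limma adjusted p 5.04e-05). Cbl (1.42, SE 0.20), Adcy8 (1.18, SE 0.24), unc-13-4A (1.07, SE 0.21), flz (1.00, SE 0.30), Lapsyn (0.93, SE 0.15) and bigmax (0.58, SE 0.09) were higher as well. Of the genes in this paragraph, LOC105187962, Ktl, Dop1R2, Adcy8, unc-13-4A, flz and bigmax did not pass within run A, where their fold changes were 2.83, 1.76, 1.27, 0.66, 1.26, 1.07 and 0.52, and flz did not pass within runs B and C either, at 0.91.

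Smaller differences lay close to the threshold. HDAC4 was higher by 0.52 (SE 0.19, limma adjusted p 0.0378) and CalpA by 0.31 (SE 0.11, limma adjusted p 0.0356). The adjusted p of HDAC4 was 0.0626 to 0.123 without replicate 2, 3, 5 or 6 of 6 h or replicate 1, 2 or 3 of the 20E baseline, with log2 fold changes of 0.39 to 0.53. That of CalpA was 0.0576 to 0.12 without replicate 1, 2, 3 or 5 of 6 h or replicate 2, 3 or 4 of the 20E baseline, with log2 fold changes of 0.26 to 0.31. The 5 lower genes were Hs3st-B, LOC105185066, LOC105191961, ken and Ets97D. Hs3st-B was at 11.2 to 17.5 FPKM at 6 h (median 14.7) and 21.3 to 56.3 FPKM in the 20E baseline, a fold change of -1.19 (SE 0.26, limma adjusted p 0.000956). LOC105185066 was at 2.54 to 5.94 FPKM at 6 h (-1.08, SE 0.26) and LOC105191961 differed by -0.90 (SE 0.28). The repressor ken differed by -0.45 (SE 0.17, limma adjusted p 0.0443) and its adjusted p was 0.0535 to 0.134, with log2 fold changes of -0.47 to -0.40, without replicate 1, 2, 4, 5 or 6 of 6 h or replicate 1, 2 or 4 of the 20E baseline. Ets97D differed by -0.27 (SE 0.08, limma adjusted p 0.0165; 0.0537 without 20E baseline replicate 1).

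Genes that did not pass included mAChR-A, with 37.2 to 60.7 FPKM at 6 h (median 55.8) and 59.9, 65.0, 39.2, 81.0 and 65.7 FPKM in the 20E baseline (-0.19, SE 0.19), Ir76b (-0.01, SE 0.18), rsh (0.09, SE 0.28), dyl (-0.08, SE 0.32), klu (0.29, SE 0.19) and UK114 (0.50, SE 0.22). For fw (0.69, SE 0.27, limma adjusted p 0.0592) the value lay near the threshold: the adjusted p was 0.0414 without 6 h replicate 3, 0.0156 without 20E baseline replicate 1 and 0.0471 without 20E baseline replicate 3. UK114 had an adjusted p of 0.0467 without 6 h replicate 3. On the ecdysone response list, 8 of 15 genes were higher and 4 lower in this comparison, and of the 14 transmitter receptors 4 were higher and 1 lower. The general neuron markers summed to 560 to 777 FPKM at 6 h and 324 to 776 FPKM in the 20E baseline, with 4 of 8 higher and none lower, and the glial markers to 229 to 354 and 163 to 194 FPKM, with 3 of 8 higher and 1 lower. Eaat2 again made up most of the glial sums, with means of 188 FPKM at 6 h and 89.8 FPKM in the 20E baseline. The part of these marker levels in the 47 higher genes was not tested.

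**Figure D4:**
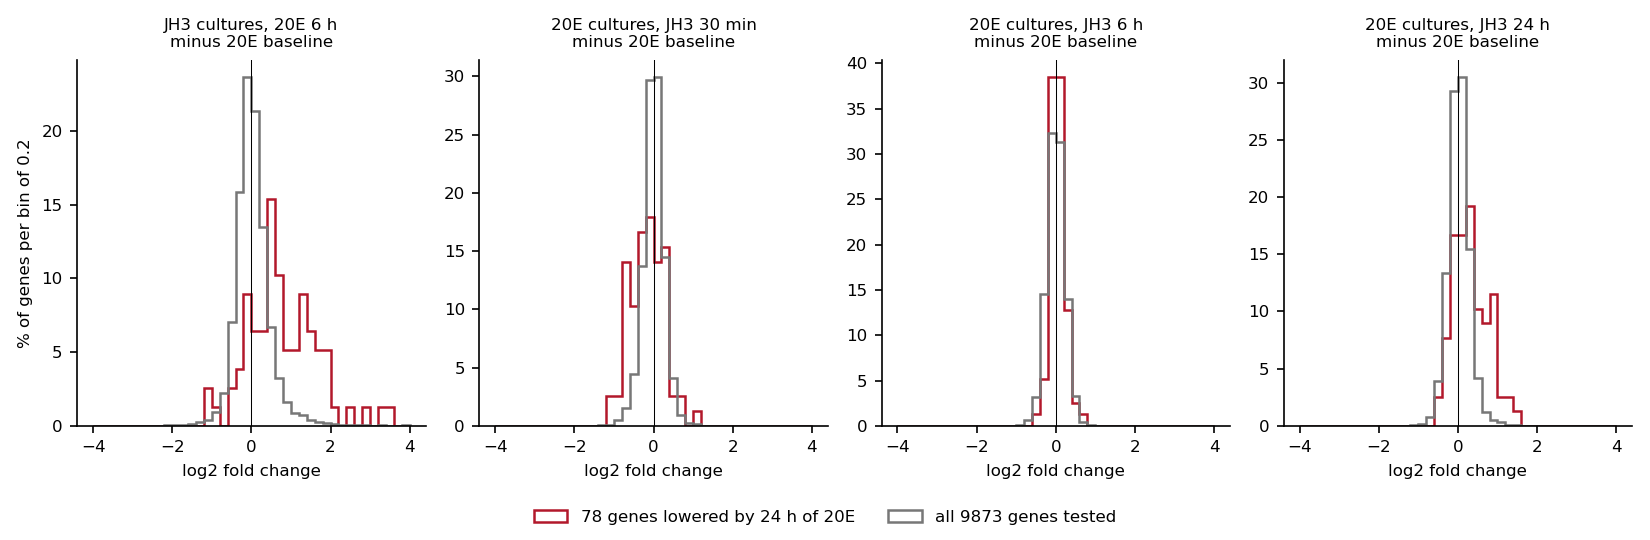
Distribution of limma's log2 fold changes (horizontal axis) of the 78 genes (red) and of all 9873 genes tested (grey) in the 4 tested comparisons, as percent of genes per bin. After 6 h of 20E the red line lies mostly right of 0 (median 0.62); for JH3 given to 20E cultures its median is -0.16 at 30 min, 0.05 at 6 h and 0.23 at 24 h.

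The opposite switch asked whether these genes move when JH3 is given to 20E cultures. All 4 tested comparisons share the 20E baseline, so their values are set side by side and not correlated. Kr-h1, the known target of JH3, was at 61.3 ± 35 FPKM after 24 h of JH3 (SD, n = 3) and 8.40 ± 4.2 FPKM in the 20E baseline (SD, n = 5). In JH3 cultures Kr-h1 was not lower after 24 h of 20E, at 49.0 ± 8.3 FPKM, against 27.5 ± 13 FPKM in the JH3 baseline (SD, n = 4 each). Of the 78 genes, 1 was higher after 24 h of JH3 and none was lower, against 0.203% and 0.0405% of all genes. The median fold change of the 78 was 0.23, with 57 above 0 and 21 below, against 0.01 over all genes. At an unadjusted p under 0.05 there were 24 of them, against 1159 of all 9873 genes. All 3 libraries of 24 h of JH3 were above all 5 of the 20E baseline in 17 genes, against 3.5% of all genes, and below them in 1, LOC105181470, against 3.18%.

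LOC105190298 was the gene called. It had 12.6, 19.3 and 11.8 FPKM after 24 h of JH3, against 2.78, 4.91, 3.02, 5.95 and 4.57 FPKM in the 20E baseline, a log2 fold change of 1.40 (SE 0.31, limma adjusted p 0.0402). All 3 libraries came from run C, and the 1 library of the 20E baseline from run C, replicate 4, had the highest level of its group. The call was lost without 24 h replicate 2 (adjusted p 0.333) or 3 (0.0708), and without 20E baseline replicate 1 (0.101), 3 (0.0800) or 4 (0.0662). The same gene was at 3.92 to 4.08 FPKM after 24 h of 20E, against 6.02 to 14.7 FPKM in the JH3 baseline.

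Several other genes had separate libraries without passing in the fit with group and run. The receptor mAChR-A had 109, 120 and 123 FPKM after 24 h of JH3, against 59.9, 65.0, 39.2, 81.0 and 65.7 FPKM in the 20E baseline (0.96, SE 0.25, limma adjusted p 0.101). Its level after 24 h of JH3 was above that of all other libraries of the series. HDAC4 had 47.3, 48.1 and 50.7 FPKM, against 27.9, 26.4, 15.7, 31.8 and 28.7 FPKM (0.81, SE 0.25, limma adjusted p 0.185), and Cbl had 26.8, 28.4 and 25.0 FPKM, against 13.6, 14.3, 9.20, 15.7 and 13.1 FPKM (0.90, SE 0.27, limma adjusted p 0.172). The receptor ftz-f1 had 16.2, 15.1 and 12.9 FPKM, against 4.95 to 11.9 FPKM in the 20E baseline (0.83, SE 0.37, limma adjusted p 0.369). Some other fits did call mAChR-A, Cbl and HDAC4. The limma adjusted p of mAChR-A was 0.0398 with no run term, 0.0386 with 2 sets of runs, 0.0176 with library weights and 0.0159 with the length trend as a covariate. That of Cbl was 0.0476 with no run term, 0.0418 with library weights and 0.0484 with the length trend, and that of HDAC4 was 0.0249 with weights and 0.0408 with the length trend. With library weights 6 of the 78 genes were called, against 55 of all 9873 genes. With the length trend 7 of the 78 were called, against 236 of all genes. All 3 libraries were below the mean of the JH3 baseline for Cbl and ftz-f1, and above it for HDAC4 and mAChR-A. Drep4 (0.10, SE 0.23), Dop1R2 (0.00, SE 0.37) and Lapsyn (-0.05, SE 0.20), all low in the 20E baseline, had fold changes smaller than their standard errors.

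At the earlier times little was detectable. After 6 h of JH3 none of the 78 genes was called by limma, against 0.0506% of all genes higher and 0% lower. Voom on recovered reads called none of the 78 either. In limma, 5 of the 78 had an unadjusted p under 0.05, against 755 of all 9873 genes. The fold changes ran from -0.47 to 0.69, with a median of 0.05. HDAC4 was at 40.9, 41, 32.5, 42.8 and 28.0 FPKM after 6 h of JH3, against 15.7 to 31.8 FPKM in the 20E baseline (0.40, SE 0.20). After 30 min of JH3 no gene of the table was called (limma; 1008 of 9873 had an unadjusted p under 0.05, 21 of the 78 among them, and voom called 0), and the median of the 78 was -0.16. All 3 libraries were below those of the 20E baseline in 1 gene, LOC105181704, against 0.567% of all genes, and above them in none, against 0.77%. Without 30 min replicate 1, 129 genes were called, of which 6 are among the 78, 1 higher and 5 lower. Replicate 3 of this group stood apart in some of the 78: it had 52.7 FPKM of HDAC4, against 30.3 and 16.2 FPKM in the other 2, 32.8 FPKM of Cbl, against 12.2 and 9.42 FPKM, 22.9 FPKM of dyl, against 1.62 and 2.03 FPKM, and 137 FPKM of LOC105181314, against 26.6 and 24.0 FPKM.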

How the data were processed

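Polyadenylated RNA of 35 neuronal cultures in 8 groups was sequenced with strand-specific libraries, per the labels' protocols. The authors deposited FPKM values for 14001 genes; bcl2fastq, STAR, featureCounts and DESeq2 are named in the submitters' processing notes without versions, and the genome build is not given in the sources used here. Names came from RefSeq (Hsal_v8.6): 13989 identifiers matched by gene number and 4117 had a symbol. Whole reads were recovered from the steps of the deposited FPKM values for 13327 genes (100% of nonzero values within 0.03 of a whole read); voom on these reads was an alternative. Log2(FPKM + 1) of the genes that reached FPKM 1 in 3 or more libraries was fitted with limma 3.58.1 (R 4.3.3) over all 35 libraries, with group and sequencing run (A, B or C, from a code in the descriptions) as terms, a trended prior and robust estimation; tests were two-sided, with Benjamini-Hochberg adjustment over all genes, and tested on simulated data. Fold changes are adjusted for run. The error of each value is the spread between cultures. The main fit did not pair libraries by replicate number. Correlations between libraries of 1 number ran from -0.38 to 0.59 over the tested comparisons. For 24 h of JH3 and the 20E baseline they were 0.02, 0.37 and 0.59.

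The 78 genes, the lists and the tests were chosen with earlier results of these data known. Genes named were the 15 largest differences with a symbol, the 5 highest baseline levels, genes at the threshold, list members and up to 8 called each way per comparison by p; the other symbol-bearing genes, LOC105181314 and LOC105185719 were added after their values were seen. Of the lists, 18 held none of the 78 genes. Sequences and promoters were not analysed here.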

Additional observations from a re-analysis of the deposited data

Results flagged for a closer look

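Among 39 of the 78 genes, 234 groups of 4 to 6 libraries were searched for a library far from the rest of its group by Dixon's 95% criterion, and 28 were found; chance alone gives about 1 in 20 groups. The cause of none was tested.

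The library of JH3 cultures given 20E for 6 h numbered replicate 4 was low in 8 genes. It had 26.4 FPKM of HDAC4 (36.0 to 43.3 in the others of the group), 65.6 FPKM of Ktl (128 to 151), 9.40 FPKM of LOC105181332 (13 to 15.1) and 5.19 FPKM of LOC105190298 (10.5 to 14.5). It also had 13.7 FPKM of Lapsyn (18.6 to 21.1), 13.2 FPKM of ftz-f1 (26.1 to 35.2), 37.2 FPKM of mAChR-A (51.9 to 60.7) and 41.3 FPKM of unc-13-4A (66.1 to 86.8). Its trend with gene length was the lowest of its group, at -0.137 on the log2 scale per doubling of length.

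After 24 h of 20E, replicate 2 was low, with 50.2 FPKM of Ktl (72.4 to 76.9), 25.7 FPKM of mAChR-A (37.4 to 40.3) and 22.1 FPKM of unc-13-4A (34.6 to 34.8).

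After 30 min of 20E, replicate 5 was high for LOC105191961, at 49.5 FPKM (26.5 to 28.1), and for fw, at 5.03 FPKM (1.63 to 1.97). It was low for Rpb8, at 24.3 FPKM (41.4 to 44.7), and for unc-13-4A, at 47.9 FPKM (76.7 to 85.1). Replicate 4 of that group was low for ken, at 4.14 FPKM (7.51 to 9.18).

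In the JH3 baseline, replicate 4 was low for LOC105187962, at 41.9 FPKM (190 to 239), LOC105191961, at 15.5 FPKM (26.7 to 29.3), and unc-13-4A, at 36.3 FPKM (77.9 to 90.6). Replicate 2 was high for CalpA, at 25.8 FPKM (19.2 to 19.5), and replicate 1 for Rpb8, at 50.2 FPKM (40.3 to 41.8).

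In 20E cultures given JH3 for 6 h, replicate 5 was high for Ets97D, at 8.77 FPKM (6.83 to 7.02), and low for LOC105190298, at 2.81 FPKM (5.09 to 6.09). Replicate 3 was high for UK114, at 2.12 FPKM (0.531 to 0.802).

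In the 20E baseline, replicate 3 was low for HDAC4, at 15.7 FPKM (26.4 to 31.8), and replicate 1 was high for LOC105182188, at 6.26 FPKM (3.55 to 3.71). Replicate 4 was low for bigmax, at 6.92 FPKM (10.2 to 11.3), and high for flz, at 2.36 FPKM (0.302 to 0.612).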

How the results depend on the processing

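The median difference of the 78 genes at 24 h of 20E was -1.11 to -0.98 without each library in turn. For 6 h of 20E against the 20E baseline, 52 of the 78 genes were called, 49 to 54 without each library in turn and 20 within run A; of all genes 2690 were called, 2009 to 2913 without each library, 1725 with the compared groups alone, 151 in run A alone and 1674 without run A. For 24 h of JH3, 24 genes were called: 15 with quantile normalization, 61 with no run term, 51 with 2 sets of runs, 55 with library weights, 15 with the replicate number as a block, 7 with the compared groups alone, 6 within runs B and C, 236 with the length trend as a covariate, 38 without JH3 baseline replicate 4 and 30 min replicate 5, and 12 to 54 without each library. Of the 78 genes 1 was called: 0 with a pseudocount of 0.1, no filter, quantile normalization, the block, the compared groups alone, runs B and C, or voom; 3 with no run term, 2 with 2 sets of runs, 6 with library weights, 7 with the length trend, and 0 to 1 without each library. For 6 h of JH3, 5 genes were called: 9 with weights, 3 with the compared groups alone, 1 in run A alone, 2 in runs B and C together and 12 with the length trend. For 30 min of JH3, 0 to 129 genes and 0 to 6 of the 78 were called without each library. The fold change of klu at 6 h of 20E reversed to -0.28 within run A. No fit within run A was possible for 24 h of JH3, and a filter at FPKM 5 left 68 of the 78 genes. The replicate block ended the calls of HDAC4, Ets97D and ken at 6 h of 20E and of LOC105190298 at 24 h of JH3; correlations between libraries of 1 number were not all above 0.1. The causes were not tested. The length trend, the voom fit and leaving out both libraries together were added after the data were seen.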
